A study of Mus musculus with 47 samples.

Results

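Imprinted genes are expressed from the copy of 1 parent, and many of them set how much an embryo grows. In P19 cells, 10 of these genes were followed, namely Igf2, Igf2r, Grb10, Cdkn1c, Mest, Peg10, Peg3, Plagl1, Dlk1 and Ndn. They were found in the files as 3′ UTR rows whose RefSeq mRNA name belongs to one of the 10 symbols, which gave 22 transcripts with 12 different 3′ UTRs, in 25 of 39419 rows, among 18854 genes in all. Genes expressed from the paternal copy in this list include Igf2, a growth factor of the embryo, and Mest, Peg10, Peg3, Plagl1, Dlk1 and Ndn. Igf2r, which takes IGF2 up for degradation, and Cdkn1c, an inhibitor of cyclin-dependent kinases, are expressed from the maternal copy and restrain growth. Grb10, an adaptor that binds the insulin and IGF1 receptors, is maternal in most tissues and paternal in neurons. The reads here do not separate the parental copies.

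P19 is a mouse embryonal carcinoma line that makes neurons after retinoic acid. SLAM-seq was performed on undifferentiated cells (D0), given 20 µM 4-thiouridine (4sU), and on cells at day 6 of differentiation (D6) with retinoic acid in neuronal medium, given 500 µM, so that dose and state changed together. New RNA takes up 4sU, and alkylated 4sU pairs as a C when it is copied, so that the T>C rate, the percentage of covered T positions read as C, measures labeled RNA. In the catabolic assay cells were labeled for 15 h and then moved to medium with UTP as a chase, and in the anabolic assay cells were sampled during labeling, both at 4 time points that the study's methods give as 0, 3, 6 and 9 h and the sample labels as 0, 1, 3 and 9. There were 47 libraries in 16 groups, 3 in each group except the third catabolic time point at D6, which had 2. The study calls its replicates biological, and the labels number the libraries without naming cultures, so that p-values measure the spread between these libraries. Reads on 3′ UTRs ranged from 3447888 to 11677046 per library at D0 and from 1489528 to 7930149 at D6. In the libraries without 4sU, 4 of 4 tested markers of undifferentiated cells were lower and 9 of 10 neuronal markers higher at D6, and their summed levels went from 1210 to 1777 CPM (reads scaled to a common library total) at D0 to 7.77 to 22.9 at D6, and from 951 to 1160 to 10454 to 11782. Pou5f1 and Utf1, among the undifferentiated markers called, passed the filter on low reads only through D0. They had 0.31 and 0.26 CPM on average at D6. The undifferentiated markers Zfp42 and Dppa5a had no read in either state. Summed mesenchymal markers also went down, from 133 to 169 CPM to 1.31 to 9.89, with 2 of 4 tested lower and Col3a1, Postn and Lum at 0 in both states. Endodermal markers summed to 10.4 to 20 CPM at D0 and 2.22 to 8.33 at D6, and glial markers to 138 to 216 and 125 to 130, with none called in either list, Gata4, Sox17, Foxa2, Sox7, Afp, Ttr, Aqp4, Olig2, S100b and Aldh1l1 at 0 in both states. Whether cells of these kinds had a part in the results on the imprinted genes was not tested, and in bulk RNA fewer cells of a type and less RNA per cell cannot be told apart.

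The libraries were made from the 3′ ends of mRNAs, so that the annotated ends of these genes were looked at first. The last 50 bases of 9 of the 10 3′ UTRs held the polyadenylation hexamer AATAAA, against 63.3% of the 19194 3′ UTR ends of all genes that could be read. The sequences shown here are from GENCODE transcripts on mm10, 30 bases of the transcript strand with the copy of the hexamer nearest the end in capitals, for the 6 genes with an end of this kind and enough reads to test and for the 3 genes with almost no reads.
Igf2 (chr7:142650771-142650800, minus strand): gctcgcaaacctAATAAAgcatttaaaata
Mest (chr6:30748427-30748456, plus strand): ttattttctattAATAAAaacaaactgtga
Peg10 (chr6:4760480-4760509, plus strand): aaaaattcaataAATAAAgacttagtggtt
Plagl1 (chr10:13131660-13131689, plus strand): atacctacatatAATAAAtgctaagcatct
Grb10 (chr11:11930508-11930537, minus strand): gttattagaaataaacattAATAAAgcgtt
Ndn (chr7:62349892-62349921, plus strand): aaccccaccataAATAAAcgttaaaatgag
Igf2r (chr17:12682412-12682441, minus strand): gtattcaatttcAATAAAgataaattatta
Cdkn1c (chr7:143458345-143458374, minus strand): cgccaggttctaAATAAAgaggcccaacaa
Dlk1 (chr12:109463304-109463333, plus strand): tgtttattgttaAATAAAggaacaagggct
The copy in capitals began 20 to 28 bases before the end of these 3′ UTRs, and the sequences of Peg10 and Grb10 hold 2 copies, the earlier one in lower case and, in Peg10, overlapping the other. Igf2r, Cdkn1c and Dlk1, the genes with almost no reads, had it as the others did, and their annotated ends were also the farthest ends in GENCODE. Peg3 had neither AATAAA nor ATTAAA in its last 50 bases, and the longest GENCODE transcript of Peg3 ran 2068 bases past the 3′ UTR of the files. For Ndn the longest GENCODE transcript ran 334 bases past it.

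The 3′ UTRs with the most reads were read as follows, all on mm10. That of Igf2 spans chr7:142650768-142653815 (3048 bases), and 69.0% of its 19549 reads lay in the shorter 3′ UTR of another Igf2 transcript, chiefly the last 857 bases. That of Peg10 spans chr6:4755352-4760517 (5166 bases), and its last 3277 bases held 99.7% of 78472 reads. That of Mest spans chr6:30747170-30748466 (1297 bases) and shares 913 of its bases with the 3′ UTR of Copg2, which lies on the opposite strand. Those of Plagl1 and Grb10 span chr10:13129105-13131694 (2590 bases) and chr11:11930499-11933462 (2964 bases). Those of Peg3 and Ndn span chr7:6705960-6707505 (1546 bases) and chr7:62349386-62349928 (543 bases). Plagl1 stood out by base composition, with 38.7% T, against a median of 28.9% over all 20737 different 3′ UTRs (quartiles 25.4% and 32.4%), and the other 9 ranged from 24.1% to 31.7%.

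The first question was which of these genes changed in level between undifferentiated cells and differentiating neurons. Without 4sU, Mest, Plagl1, Peg10, Peg3 and Grb10 were lower at D6, and Igf2 and Ndn had higher values at D6 that did not pass the test. Of the 7 genes that passed the filter on low reads, 5 were called lower, where 5.4% of all 16091 transcripts tested were, and 0 of the 7 were called higher, where 7.74% were. Among the 5 is Grb10, which passed the filter only through D0, with 446 reads there and 1 at D6. DESeq2 called 5 lower and 2 higher, where 8.79% and 11.3% of all transcripts were, and edgeR on the libraries after 15 h in 4sU called 3 lower and 1 higher, where 7.55% and 7.33% of 15655 were. The median log2 fold change of the 7 was -2.68, and that of all transcripts tested was -0.04. The test was edgeR's quasi-likelihood test with Benjamini-Hochberg adjustment over all transcripts. Whether the groups without 4sU overlap is given below as a description. The share of all transcripts without overlap in these libraries alone was not counted.

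Mest, a member of the alpha/beta hydrolase fold family, had 1085, 492 and 1115 CPM at D0 and 135, 70.8 and 142 CPM at D6. The groups did not overlap, and every D6 library was under the lowest D0 library. Its log2 fold change was -2.93 (SE 0.36, adjusted p 0.00044 by edgeR). Copg2, the gene on the opposite strand, had 87.9 ± 20.1 CPM at D0 and 163 ± 31.7 at D6 (SD, n = 3), and was not called.

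Plagl1, a zinc finger transcription factor also known as Zac1, had 629, 304 and 523 CPM at D0 and 60.5, 67.7 and 58.2 CPM at D6. No D6 library reached the lowest D0 value. The log2 fold change was -2.94 (SE 0.31, adjusted p 0.00016 by edgeR). With 15 h of 4sU in both states it was -1.90 (adjusted p 0.0021), a 3.74-fold difference in place of 7.68-fold.

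Peg10, derived from a retrotransposon and required for the placenta, had 425, 502 and 391 CPM at D0 and 56.5, 28.6 and 124 CPM at D6. The D6 libraries stayed under all D0 libraries. Here the log2 fold change was -2.68 (SE 0.48, adjusted p 0.0041 by edgeR).

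Peg3, a zinc finger protein gene, had 144, 179 and 127 CPM at D0 and 34.2, 38.9 and 29.7 CPM at D6. The groups were apart, with little spread within either. The log2 fold change of Peg3 was -2.15 (SE 0.39, adjusted p 0.0044 by edgeR). With 15 h of 4sU in both states its log2 fold change was -1.30 (adjusted p 0.084), and with the spread estimated over all 47 libraries the adjusted p was 0.12, so that the call was lost in both.

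Grb10 had 29.7, 13.3 and 23.5 CPM at D0, and at D6 0.22, 0 and 0 CPM. A total of 446 reads at D0 stood against 1 read at D6, a ratio of D6 to D0 of 0.0029 (95% exact binomial interval 7.3e-05 to 0.016, for counting error only). This interval takes the reads as independent, which they need not be without molecular identifiers. It also leaves out the spread between libraries. The adjusted p by edgeR was 0.020. The other D6 libraries varied widely, from several at or near 0 up to 60.8 CPM in library 42. With 15 h of 4sU in both states Grb10 had 23.5, 15.1 and 5.22 CPM at D0 and 4.25, 4.80 and 13.7 at D6, which overlap, and its log2 fold change was -1.07 (95% interval -3.73 to 1.59, adjusted p 0.71 by edgeR), so that the call and most of the difference were lost. The call was also lost without D0 library 55, D0 library 57, D6 library 38 or D6 library 39 (adjusted p 0.083, 0.063, 0.055 and 0.058).

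Igf2 had 59.5, 47.6 and 31.9 CPM at D0 and 131, 96.3 and 112 CPM at D6. All D6 libraries were above all D0 libraries, and the adjusted p was 0.067 (edgeR, log2 fold change 1.27, SE 0.41). DESeq2 called it (adjusted p 0.032). It was not called with 15 h of 4sU (log2 fold change 0.90, adjusted p 0.26) or with the spread estimated over all 47 libraries (adjusted p 0.13).

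Ndn, which encodes necdin, a MAGE family protein of postmitotic neurons, had 106, 177 and 143 CPM at D0 and 266, 290 and 280 CPM at D6. Again the groups did not overlap, and the adjusted p was 0.078 (edgeR, log2 fold change 0.94, SE 0.32). Ndn was called by DESeq2 (adjusted p 0.042), by edgeR without D0 library 56 (adjusted p 0.014), and with 15 h of 4sU (log2 fold change 1.26, adjusted p 0.022), but not with the spread estimated over all 47 libraries (adjusted p 0.070).

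Igf2r, Dlk1 and Cdkn1c did not pass the filter. Igf2r had reads in 3 of 24 D0 libraries and 1 of 23 D6 libraries, never above 1.85 CPM. Dlk1, a transmembrane protein related to the Notch ligands, had no read in any of the 24 D0 libraries, which allows up to 0.26 to 0.87 CPM per library (3 reads), and had reads in 4 D6 libraries, up to 18.5 CPM. Cdkn1c had reads in 11 D0 libraries, up to 5.66 CPM, and in 5 D6 libraries, up to 57.1 CPM. With this filter, edgeR did not test these 3 genes for a difference between the states in the libraries without 4sU.

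**Figure D1:**
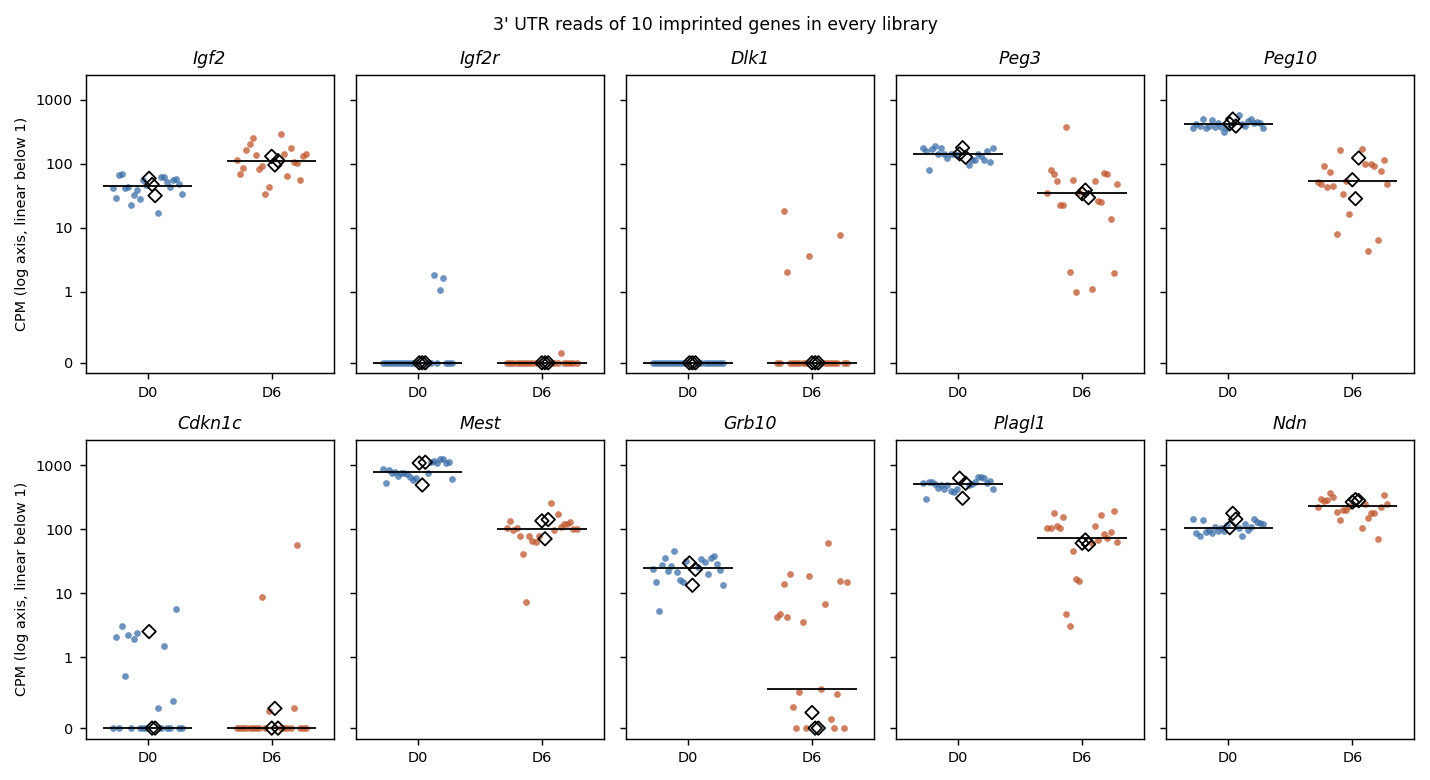
Reads of the 10 imprinted genes in each of the 47 libraries, in CPM on a log axis that is linear below 1 (blue, D0, 24 libraries; orange, D6, 23 libraries; open diamonds, the 3 libraries per state without 4sU; lines, medians over all libraries of a state). Mest, Peg10 and Plagl1 lie lower at D6 with medians of 101, 53.1 and 73.3 CPM against 771, 423 and 514, while Igf2 and Ndn lie higher and Igf2r, Dlk1 and Cdkn1c lie mostly at 0.

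The other libraries gave the same quantity in 7 more pairs of groups with the same assay and time point. Over the 24 D0 libraries, Mest ranged from 492 to 1267 CPM with a median of 771, and over the 23 D6 libraries from 7.38 to 260 CPM with a median of 101. For Peg10 the range was 317 to 583 CPM (median 423) at D0 and 4.31 to 171 CPM (median 53.1) at D6. For Plagl1 it was 297 to 655 CPM (median 514) at D0 and 3.05 to 193 CPM (median 73.3) at D6. In these 3 genes every D6 library was under every D0 library, in 8 of 8 matched pairs of groups, as were 4.47% of the 16091 transcripts of the read test. Peg3 had 80.0 to 193 CPM (median 141) at D0 and 1.01 to 381 CPM (median 35.6) at D6, with all D6 libraries lower in 6 of 8 pairs, where 11.6% of transcripts were lower in at least as many. The D6 value of 381 CPM came from library 14, the shallowest of all libraries with 1489528 reads, and its partner, library 15, had 2.03 CPM. Grb10 had 5.22 to 45.7 CPM (median 24.6) at D0 and 0 to 60.8 CPM (median 0.54) at D6, with 6 D6 libraries at 0, and was lower in every library of 4 of 8 pairs, where 22.5% of transcripts were in at least as many. Igf2 had 16.8 to 70.3 CPM (median 45.7) at D0 and 33.6 to 297 CPM (median 112) at D6. Ndn had 77.4 to 177 CPM (median 106) at D0 and 70.7 to 365 CPM (median 234) at D6. For both of these genes, all D6 libraries were higher in 6 of 8 pairs, where 8.84% of transcripts were higher in at least as many.

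The mean of the 8 matched comparisons, a contrast chosen after seeing the data and taken from 1 edgeR fit of all 47 libraries, includes the libraries without 4sU and is not independent of them. In it 27.7% of the 20699 transcripts tested were called lower at D6 and 17.4% higher. Mest, Plagl1, Peg10, Peg3 and Grb10 were among those lower, with log2 fold changes of -3.09 (SE 0.14), -3.06 (0.14), -2.65 (0.23), -1.59 (0.30) and -3.36 (0.57). Igf2 and Ndn were among those higher, with log2 fold changes of 1.44 (SE 0.20) and 1.04 (0.13). The largest adjusted p of these 7 was 1.4e-05, that of Peg3.

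**Figure D2:**
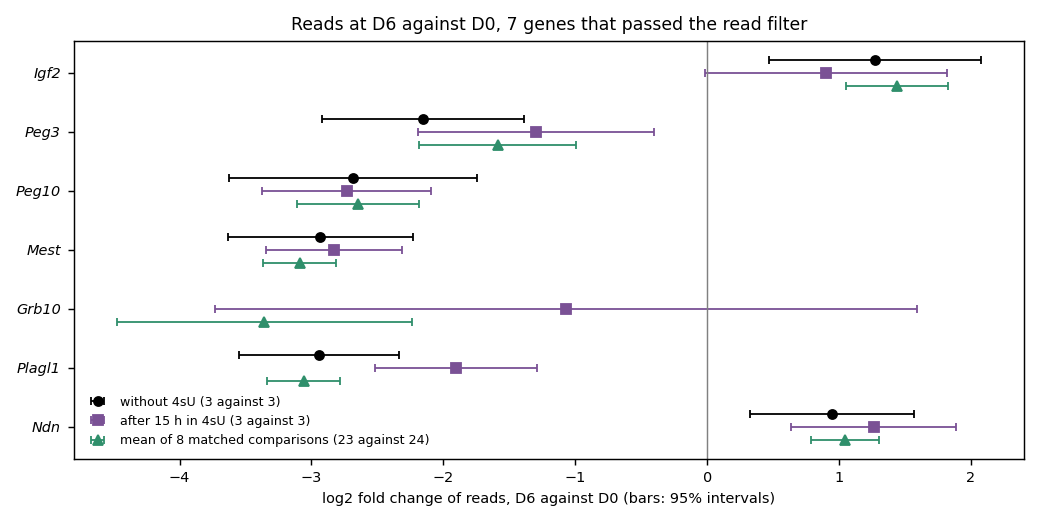
Log2 fold change of reads at D6 against D0 for the 7 genes that passed the read filter, with bars of 95% intervals, from libraries without 4sU (circles), after 15 h in 4sU (squares) and as the mean of 8 matched comparisons (triangles). Grb10 has no circle because the D6 libraries without 4sU held 1 read. Mest, Plagl1, Peg10 and Peg3 lie under 0 in all 3, and Igf2 and Ndn lie above 0. The bars after 15 h reach 0 for Igf2 and Grb10.

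Whether 9 h in 4sU itself moved the reads was asked within each state. In edgeR 0% of 16570 transcripts at D0 and 0% of 14994 at D6 were called, with 418 and 516 at an unadjusted p under 0.05, and DESeq2 called 10 and 3. None of the imprinted genes tested was called, 7 at D0 and 6 at D6, where Grb10 did not pass the filter. At D0 Mest had 1071, 1140 and 614 CPM after 9 h, values that overlap those without 4sU. At D6 Plagl1 had 91.6, 193 and 62.7 CPM after 9 h against 60.5, 67.7 and 58.2 without, which also overlap, and its log2 fold change of 0.89 had a 95% interval of -0.22 to 1.99. With the spread estimated over all 47 libraries it was 0.84 (interval 0.14 to 1.54, unadjusted p 0.022, adjusted p 0.46). After 15 h in 4sU Plagl1 had 103, 106 and 180 CPM at D6, all above the libraries without 4sU, and a log2 fold change of 0.99 (interval 0.26 to 1.72, unadjusted p 0.017, adjusted p 0.63 by edgeR). Grb10 at D6 had 0.22, 0 and 0 CPM without 4sU and 15.4, 0 and 14.8 after 9 h, and in the fit of all 47 libraries, where it could be tested, the unadjusted p was 0.00064 and the adjusted p 0.20. The same D6 libraries without 4sU enter its edgeR comparison with D0 above. Grb10 was lower at D6 in every library of 4 of 8 matched pairs of groups, where 22.5% of transcripts were in at least as many. At the third anabolic time point it had 0.14, 0 and 0.48 CPM at D6. The cause of the spread of Grb10 between the D6 libraries was not tested.

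Levels of the pathway around Igf2 were taken from 17 other genes, chiefly receptors, binding proteins and adaptors. Of these, 11 could be tested in the libraries without 4sU, and 2 were higher and 2 lower at D6 (7.74% and 5.4% of all transcripts), with a median log2 fold change of 0.19 beside -0.04 over all transcripts. Igfbp5, a binding protein of the IGFs, rose from 0.52 ± 0.23 to 143 ± 40.7 CPM (SD, n = 3, log2 fold change 8.06, SE 0.64, adjusted p 2.4e-05 by edgeR). Igfbp5 passed the filter on low reads only through D6. The receptor gene Igf1r rose from 235 ± 59.1 to 547 ± 88.1 CPM (log2 fold change 1.24, SE 0.27, adjusted p 0.011 by edgeR, n = 3). Igfbp3, the main IGF carrier of the blood, fell from 158 ± 83.3 to 4.18 ± 1.88 CPM (log2 fold change -5.22, SE 0.63, adjusted p 0.00044 by edgeR, n = 3), and Igfbp2 fell from 992 ± 189 to 437 ± 207 CPM (log2 fold change -1.19, SE 0.32, adjusted p 0.032 by edgeR, n = 3). The ligand gene Igf1 had 6.60 ± 11.3 CPM at D0 and 64.1 ± 42.4 at D6 and was not called.

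Among 40 further imprinted genes, 39 had a 3′ UTR in the files and 23 could be tested. Of these, 3 were higher and 4 lower at D6, beside the same 7.74% and 5.4%, with a median log2 fold change of 0.35. Nnat, which encodes the neuronal membrane protein neuronatin, rose from 176 ± 113 to 2083 ± 245 CPM (SD, n = 3, log2 fold change 3.49, SE 0.47, adjusted p 0.00078 by edgeR). Begain, a gene of the Dlk1 region, had 1 read in the 3 D0 libraries together and 16.2 ± 6.07 CPM at D6 (adjusted p 0.033 by edgeR, n = 3). The amino acid transporter gene Slc38a4 fell from 119 ± 15.6 to 0.40 ± 0.38 CPM (adjusted p 7.2e-05 by edgeR, n = 3), and Phlda2, a growth restrainer of the placenta near Cdkn1c, from 82.8 ± 13.9 to 0.26 ± 0.29 CPM (adjusted p 0.00037 by edgeR, n = 3). Slc38a4 and Phlda2 passed the filter on low reads only through D0 and Begain only through D6, so that 1 side of each comparison was near 0. Calls in these lists went both ways, and the difference between the lists and the 10 genes was not tested.

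Across the 16 group means, the gene with the most similar log2(CPM + 1) pattern among 8736 genes outside the 10 was S100a10 for Peg10 (Pearson r 0.99), Hbs1l for Plagl1 (0.98), Id1 for Mest (0.98), Terf1 for Peg3 (0.97), Fam181a for Igf2 (0.96), St3gal2 for Ndn (0.95) and Rassf4 for Grb10 (0.94). The groups of a state share that state, so that these values largely describe the step from D0 to D6, and no test was made.

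The second question was how long label stayed in these mRNAs. Igf2r, Dlk1 and Cdkn1c had under 1000 covered T positions per library on average and were not analysed. Over all 3′ UTRs the T>C rate was 0.17% without 4sU in both states, 1.42% after 15 h at D0 and 4.63% at D6, and 29.2% and 19.1% of it was left after 9 h of chase. The counts of conversions were tested with edgeR with the T positions covered and the overall rate of each library as offset, so that a gene is compared with all 3′ UTRs together.

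At D0 label left Plagl1 almost evenly in all libraries. The T>C rate of Plagl1 after 15 h was 1.39%, 1.37% and 1.68%, and after 9 h of chase it was 0.23%, 0.27% and 0.24%. In Mest it went from 1.49%, 1.39% and 1.48% to 0.30%, 0.50% and 0.48%. In Peg10 it went from 1.69%, 1.69% and 1.53% to 0.49%, 0.33% and 0.50%. In these 3 genes 16.6%, 29.1% and 26.8% of the mean rate was left, beside 29.2% over all 3′ UTRs. Without 4sU the rate was already 13.9%, 12.3% and 1.35% of that after 15 h, and with it subtracted, a step added after seeing the data, 3.13%, 19.2% and 25.8% was left.

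Ndn had 1.95%, 1.96% and 0.34% at the start and 0.32%, 0.34% and 0.39% after 9 h, so that 1 starting library was as low as those chased. Peg3 had 1.71%, 1.71% and 0% at the start and 0.26%, 0.018% and 0.019% after 9 h. In Igf2 the starting rates of 0.58%, 0.18% and 1.66% were no higher than those without 4sU, which were 0.52%, 1.37% and 0.84%, so that no label could be followed at D0. Grb10 had 0%, 4.42% and 2.86% at the start on at most 2464 covered T positions, and 2.01%, 1.24% and 0.48% after 9 h.

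At D6 the libraries of a group were further apart. Plagl1 went from 7.05%, 4.43% and 5.60% after 15 h to 1.10%, 0.20% and 0.52%. Mest went from 3.85%, 2.52% and 3.07% to 1.37%, 0.051% and 0.23%. For Peg10 the rates were 6.22%, 1.95% and 6.93% and then 0.019%, 1.53% and 0.93%. In these 3 genes 10.6%, 17.6% and 16.4% of the mean rate was left, beside 19.1% over all 3′ UTRs. With the rate without 4sU subtracted, 10.1%, 16.7% and 16.3% was left. For Plagl1 the share left was thus lower at D6 than at D0 as measured and higher with the subtraction, and for Mest and Peg10 it was lower at D6 both ways. Igf2 went from 5.59%, 4.00% and 5.74% to 3.84%, 2.98% and 2.79%, with 62.7% of the mean left. Ndn went from 5.09%, 6.49% and 3.78% to 5.12%, 1.00% and 0.80%, so that library 16 kept the starting level. Peg3 had starting rates of 2.11%, 4.61% and 3.86%, and after the chase 0.25%, 0% and 0.072%, the 0 on 49 covered T positions.

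**Figure D3:**
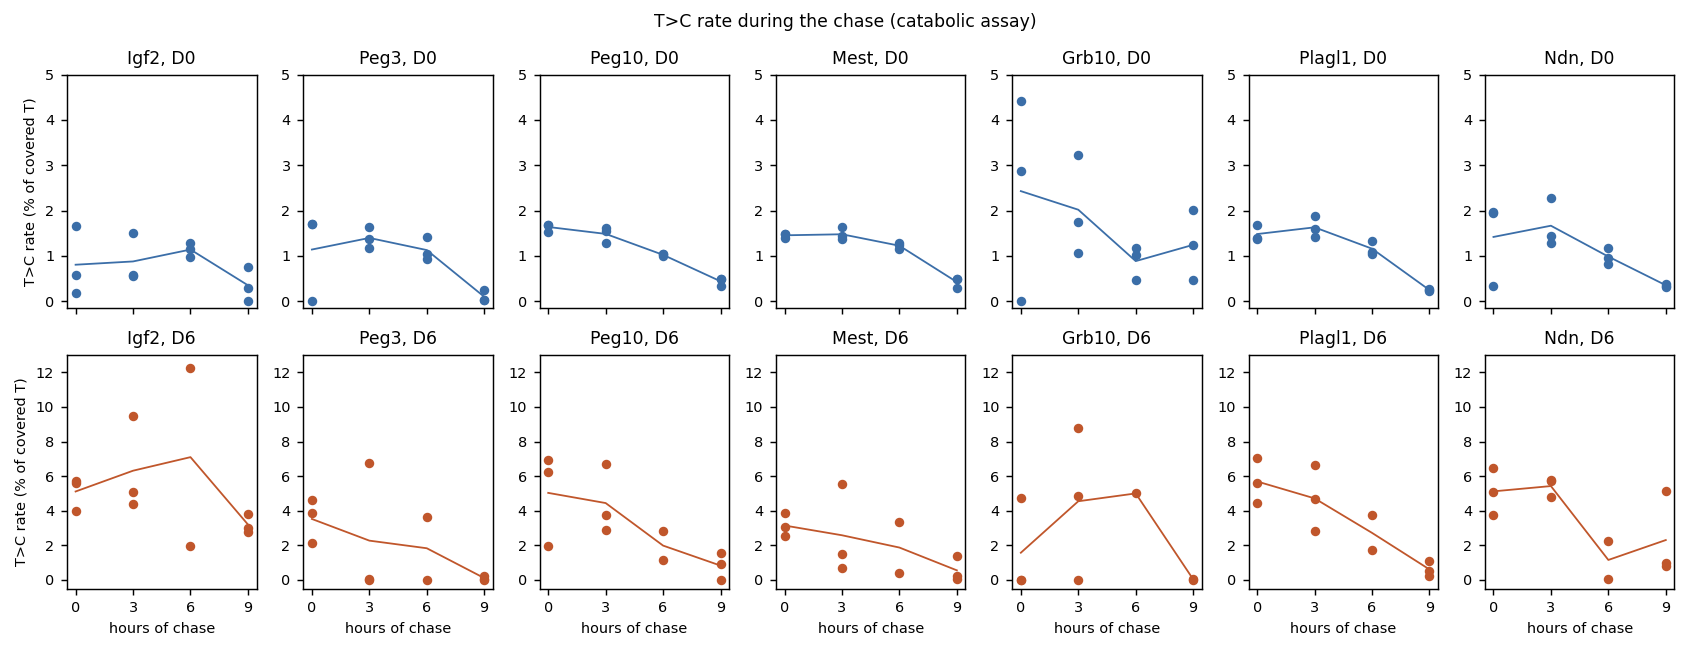
T>C rate, in percent of covered T positions, of 7 imprinted genes during the chase (upper row, D0; lower row, D6; points, libraries; lines, means of a time point), at 0, 3, 6 and 9 h as the study's methods give them. At D0 the points of Mest, Peg10 and Plagl1 lie close together at each time point, and at D6 the libraries of a time point lie further apart.

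Set against all 3′ UTRs, edgeR called none of the 7 genes for label lost or kept. At D0 4.13% of 14426 transcripts were called, 308 with less and 288 with more label left. This balance depended on the processing. The counts with less and more were 126 and 711 with the median rate of the transcripts as the offset. They were 611 and 54 by limma on rates less their background, and 1151 and 482 by DESeq2. Plagl1 had a log2 ratio of -0.82 (SE 0.29, unadjusted p 0.0085, adjusted p 0.12 by edgeR), and the alternatives differed on it, with an adjusted p of 0.019 by DESeq2, which called 7.98% of transcripts with less label left, 0.025 by limma on rates less their background (log2 ratio -4.27), which called 4.24%, and 0.047 by edgeR without D0 library 35. At D6 0.797% of 14426 transcripts were called, a number that went from 115 to 59, 66 and 51 without D6 library 7, 8 or 9. Igf2 had a log2 ratio of 1.70 (SE 0.54, unadjusted p 0.011, adjusted p 0.21 by edgeR), and DESeq2 gave an adjusted p of 0.00030, with 2.03% of transcripts called with more label left. With the median rate of the transcripts as the offset, the log2 ratio of Igf2 at D6 was 2.33 (adjusted p 0.093 by edgeR). The median transcript had a log2 ratio of -0.67 at D0 and -0.68 at D6, and the cause of this shift was not tested. With the median rate of the transcripts as the offset at D0, the log2 ratio was -0.08 for Plagl1, 0.74 for Mest and 0.58 for Peg10, whereas against the overall rate it was -0.0067 for Mest and -0.13 for Peg10.

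The difference between the states in label left after 9 h was called for 0.0208% of 14426 transcripts and for none of the 7 genes. These were 3 transcripts, and without D6 library 16 they were 48. For Plagl1 the log2 difference of D6 against D0 was 0.04, with a 95% interval of -1.24 to 1.31. It depended on the processing, with 5 of 17 alternatives of the other sign and a value of 3.29 (interval 0.93 to 5.66, unadjusted p 0.021, adjusted p 0.33) by limma on rates less their background. That limma value uses the same D0 rates of Plagl1 near the floor. For Mest the log2 difference by edgeR was -0.12 (interval -1.66 to 1.42) and for Peg10 -0.11 (interval -2.06 to 1.84). The edgeR intervals include changes of more than 2-fold in either direction for each of the 3 genes.

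Uptake was read from the anabolic assay. At D0 Plagl1 had a T>C rate of 0.32%, 0.033% and 0.26% without 4sU and 1.35%, 1.50% and 1.43% after 9 h. Peg10 had 0.061%, 0.0028% and 0.0027% without 4sU and 1.38%, 1.06% and 1.46% after 9 h. Mest had 0.15%, 0.32% and 0.071% and then 1.10%, 1.20% and 1.46%. At the second time point, 3 h by the study's methods, label was still at the level without 4sU, with 0.16% over all 3′ UTRs and 0.066%, 0.075% and 0.077% in Mest. Peg3 had 0.010%, 0.029% and 0.0051% without 4sU and 1.29%, 0.82% and 1.65% after 9 h, with the groups apart. After 9 h the rates of Plagl1, Peg10 and Mest were 96.4%, 79.4% and 86.2% of those after 15 h, beside 87.5% over all 3′ UTRs. At D6 Plagl1 reached 2.93%, 1.75% and 1.61% after 9 h, all under its rates of 7.05%, 4.43% and 5.60% after 15 h, so that 36.9% of the mean was reached, beside 77.8% over all 3′ UTRs. Mest had 4.56%, 1.34% and 2.80% after 9 h, which overlap its rates after 15 h, and reached 92.2% of their mean. Peg10 had 4.23%, 0.69% and 3.10% and reached 53.1%. Ndn, with 3.14%, 3.72% and 3.02% after 9 h against 0.22%, 0.32% and 0.71% without 4sU, reached 64.3% of its rate after 15 h, with the groups apart.

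In the test of 9 h against 15 h between the states, 0% of 14426 transcripts were called by edgeR, with 1056 at an unadjusted p under 0.05, and DESeq2 called 134. Plagl1 had the lowest p of the 7 genes, with a log2 difference of D6 against D0 of -1.22 (SE 0.35, unadjusted p 0.0031, adjusted p 0.41 by edgeR). Over the alternatives its adjusted p ranged from 0.098 to 0.68.

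**Figure D4:**
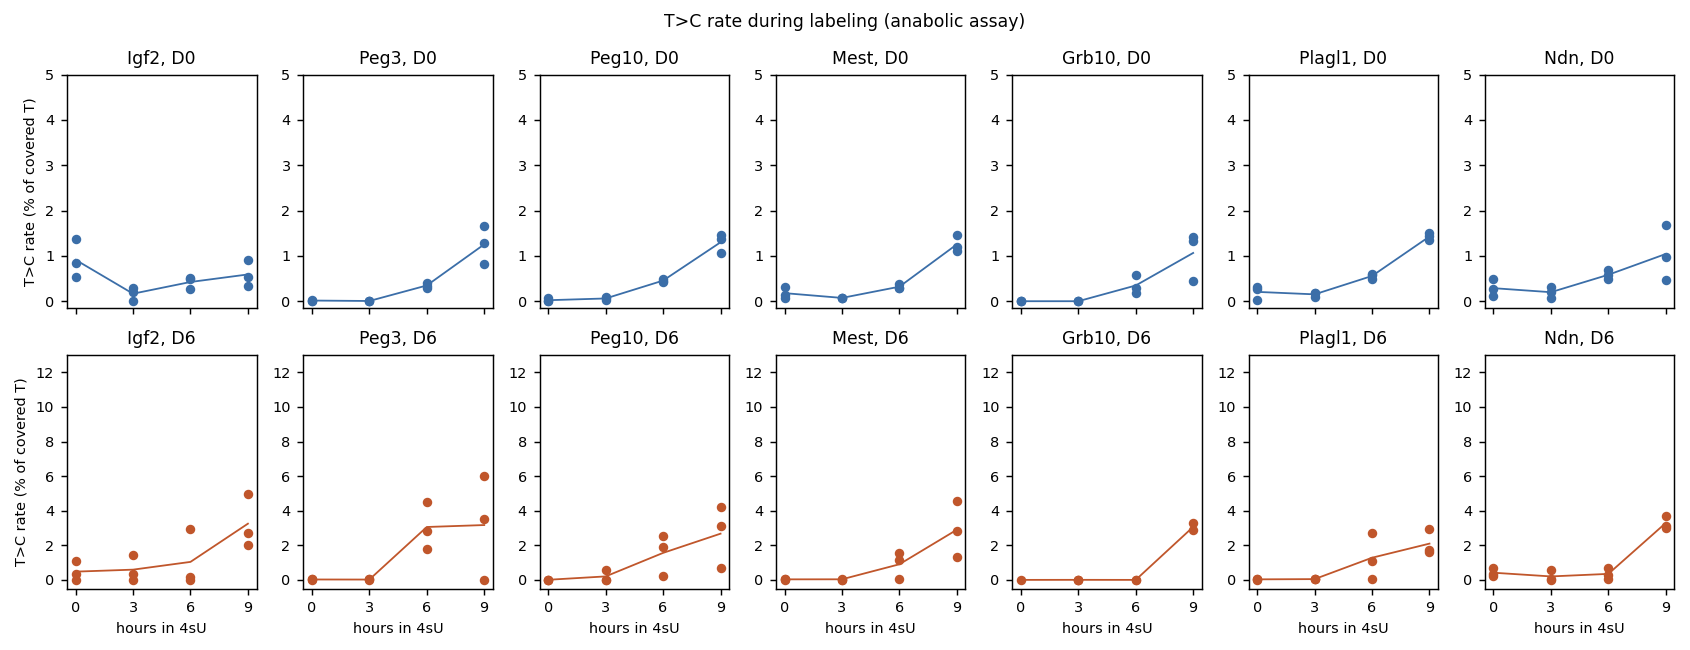
T>C rate, in percent of covered T positions, of 7 imprinted genes during labeling (upper row, D0; lower row, D6; points, libraries; lines, means of a time point), at 0, 3, 6 and 9 h as the study's methods give them. At D0 Mest, Peg10 and Plagl1 reach 1.06% to 1.50% in every library after 9 h, and at D6 the libraries of a time point differ more widely.

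Half-lives were fitted as exponential curves to all libraries of an assay and kept where R squared was over 0.6 and the half-life at most 5000 min. Few were kept for these genes, 1 of 7 for decay in each state, 2 for synthesis at D0 and 0 at D6, where 15.7%, 16.9%, 22.1% and 10.2% of 14426 transcripts were kept. Peg10 at D0 had a decay half-life of 431 min (SE 62), longer than 87.5% of the 2258 kept, whose median was 280.5 min. This rank depends on the filter. With no minimum of R squared, 11034 were kept, with a median of 405 min and an upper quartile of 661 min. The synthesis half-life of Peg10 at D0 was 461 min (SE 95.6), beside a median of 417 min. Plagl1 had a synthesis half-life of 335 min (SE 75.3) at D0 and a decay half-life of 293 min (SE 76.5) at D6. The median of those kept for decay at D6 was 221 min, and 316 min over 12630 with no minimum of R squared. With the hours of the labels Peg10 at D0 decayed with 284 min (SE 22.5) and Plagl1 at D6 with 177 min (SE 49.1), so that both values depend on which hours are right.

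Both sets of hours share 0 and 9 h, and from these alone more half-lives were kept, for these genes as for all transcripts (35.5% for decay at D0 and 51.5% at D6). At D0 decay took 285 min (SE 23.6) for Peg10, 303 min (SE 26.1) for Mest and 208 min (SE 30.1) for Plagl1, against a median of 179 min over 5117 transcripts. At D6 it took 207 min (SE 142) for Peg10, 215 min (SE 79.9) for Mest and 167 min (SE 62.5) for Plagl1, against a median of 169 min over 7427. In each of these genes the difference between the states was smaller than the sum of both errors. The other values at D6 were 802 min (SE 217) for Igf2, longer than 99.7% of those kept, and 107 min (SE 136) for Peg3, whose error exceeds the value. The rank of Igf2 is among transcripts kept with R squared over 0.6. Its value leaves out the time points at 3 and 6 h by the study's methods. There the mean rate of Igf2 was 124% and 139% of that after 15 h. At 6 h libraries 14 and 15 had 12.3% and 1.93%. The fit of Igf2 to all time points had an R squared of 0.0047 and was not kept.

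Sequence motifs tied to mRNA decay were looked for on the transcript strand of 9 of the 3′ UTRs, without that of Cdkn1c, which is in 2 pieces. The AU-rich nonamer TTATTTATT occurred in none of them, and in 2.86% to 21.3% of 3′ UTRs within 20% of their lengths. TGTANATA, the motif of the Pumilio proteins, occurred in Peg3, Mest, Plagl1 and Igf2r, where 28.6%, 24.6%, 41.6% and 24.4% of 3′ UTRs of such a length have it. The matches are shown in capitals for the 3 of these genes whose label could be followed.
Peg3, first match (chr7:6707098-6707125, minus strand): attcctgccaTGTATATAaatgagcaaa
Peg3, second match (chr7:6706444-6706471, minus strand): gctcttacatTGTAAATAaggaagcaaa
Mest (chr6:30747910-30747937, plus strand): tgcatactcaTGTATATAtttacaaaca
Plagl1 (chr10:13129443-13129470, plus strand): gctgctatttTGTAAATAtcgtgttgag
Peg10 and Grb10 had no match, and neither did Igf2 or Ndn. A match is a stretch of letters and was not tested as a binding site.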

How the data were processed

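SLAM-seq was measured in 47 libraries of P19 cells, 24 at D0 and 23 at D6, grouped by their labels into 16 groups. The authors mapped 3′ end reads with slamdunk 0.3.3 to mm10 and deposited counts for each RefSeq 3′ UTR interval (of reads, of T>C conversions and of the T positions they cover), a conversion rate as a fraction and reads as CPM. The deposited fraction and CPM were not used. Counts were summed per transcript, and CPM here were computed from the reads on all 3′ UTRs. No molecular identifiers were used, so that reads are not independent molecules, and depths (1489528 to 11677046 reads) give counting error only. For each gene the transcript with the most reads is given. Names came from RefSeq accessions of GRCm38.p6, with 28064 of 28190 mRNA transcripts matched.

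Reads were tested with edgeR 4.0.16 in R 4.3.3 (TMM, filterByExpr, quasi-likelihood, only the 2 groups compared), and conversions with covered T positions and the library rate as offset, for transcripts that averaged 1000 or more covered T positions. Calls have a Benjamini-Hochberg adjusted p under 0.05. Intervals of log2 values are 1.96 SE. Alternatives used DESeq2 1.42.0, limma 3.58.1 (pseudocount 0.0001), other filters, offsets, libraries and hours, and each library left out. Half-lives were fitted with numpy 2.4.6 in Python 3.11.15, relative to the mean rate at 0 h of the catabolic assay, and left out where the fitted value after 0 h started under 0.001. Both were also run on simulated data. For half-lives these held counting error only, without the spread between libraries seen here. They therefore do not show how the fits behave on these genes.

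The genes and lists were chosen with earlier results of these data known. Named were the 10 genes, the 2 genes per direction with the largest fold change among those called in each of 2 lists, and for each tested gene the most correlated other gene with a mean of at least 10 CPM. Copg2, Igf1 and the markers at 0 were added after their values were seen.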

Additional observations from a re-analysis of the deposited data

How the results depend on the processing

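The calls of Mest, Plagl1 and Peg10 as lower at D6 held under every alternative run, with the lowest and highest log2 fold change without 1 library at -3.18 and -2.69, -3.14 and -2.76, and -3.38 and -2.32, and Plagl1 at -1.90 with the libraries after 15 h in 4sU in place of those without. With those libraries 3 genes were lower and 1 higher. DESeq2 and the mean of the 8 matched comparisons, the latter chosen after seeing the data, each had 2 genes higher. Without 1 library, 4 to 5 genes were lower and 0 to 1 higher, where 3.08% to 4.95% and 4.33% to 8.51% of transcripts were. For label left after 9 h, DESeq2 and limma each called 1 gene lower at D0, DESeq2 called 1 higher at D6, and without 1 library 0 to 1 were called lower at D0, where 1.09% to 3.69% of transcripts were. The numbers of all transcripts called differed between edgeR and DESeq2 by over 1.5 times in reads at D6 against D0, with 2115 and 3234, in label left after 9 h, with 596 and 1633 at D0 and 115 and 1353 at D6, in the difference between the states, with 3 and 240, and in uptake, with 0 and 134, and the cause was not tested. For label left at D6 limma called 1315, the median rate as offset 232 and the minimum of 5000 covered T positions 186. For the difference between the states limma called 110 and that minimum 6, and for uptake limma called 138. Without 1 library the numbers were 1253 to 2307 for reads (lowest without D6 library 37), 319 to 836 for label left at D0 (lowest without D0 library 34), 51 to 165 at D6, 0 to 48 for the difference between the states and 0 to 44 for uptake (highest without D6 library 52).

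The number of genes with a half-life changed most. For decay at D0 it was 3 with the hours of the labels, with 0 and 9 h only and with means of time points, 7 with no minimum of R squared, and 1 to 3 without 1 library, where 23.99%, 35.5%, 45.4%, 76.5% and 12.7% to 20.5% of all transcripts were kept. For decay at D6 it was 5 with 0 and 9 h only, 4 with means of time points, 6 with no minimum, and 0 to 2 without 1 library (51.5%, 50.8%, 87.6% and 13.7% to 24.7% of all transcripts). For synthesis at D0 it was 5 when the labels set the hours, 4 with 0 and 9 h only, 4 with means, 1 with the background subtracted, 7 with no minimum, and 1 to 3 without 1 library (43.7%, 32.9%, 47.6%, 19.6%, 91.0% and 18.2% to 26.2%). For synthesis at D6 it was 3, 5 and 5 in the same order, 7 with no minimum, and 0 to 1 without 1 library (24.7%, 23.6%, 53.9%, 92.2% and 7.76% to 17.8%). Of 43 estimates for single genes that were not called, 88 of 534 alternative values had the other sign, and of 5 that were called, 0 of 60 had. No paired analysis was possible because the library numbers in the labels are not shared between groups. At D6, with fewer reads per library, a rate rested on as few as 14 covered T positions in Grb10 and 38 in Peg3.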

Other observations

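Some values of these genes rested on 1 library. Cdkn1c had 57.1 CPM in D6 library 45 of the anabolic assay, and 0 and 0.29 CPM in the other libraries of that time point. In the same library 45 the T>C rate of Igf2, Mest and Plagl1 was 0.011%, 0.024% and 0.030%, whereas library 43 had 2.92%, 1.53% and 2.69%. Peg10 and Ndn were also lowest of their time point in library 45, at 0.23% and 0.079%, while Peg3 was highest there, at 4.53% beside 2.83% and 1.81%, and the rate over all 3′ UTRs was 1.58% in library 45 and 2.03% in library 43. Grb10 had 60.8 CPM in D6 library 42 with a T>C rate of 0.0098%. Igf2 had 0.485% of its reads in the shorter 3′ UTR in D6 library 14, where the median of the 23 D6 libraries was 64.3%, and its T>C rate there was 12.3%.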
